A study of Homo sapiens with 10 samples.

Results

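Beta-catenin, the 4 TCF/LEF transcription factors and the 5 Groucho corepressors were followed through 10 RNA-seq libraries of Caco-2 cells. The 10 genes were CTNNB1, TCF7, TCF7L1, TCF7L2, LEF1, TLE1, TLE2, TLE3, TLE4 and AES. They were found by gene symbol among 60554 genes, and they account for 183 of the 199169 transcripts listed, of which 74 had at least 1 count over all libraries and 23 were tested. In Wnt signaling, beta-catenin that escapes degradation enters the nucleus and joins TCF/LEF factors, which sit on DNA at the control regions of Wnt target genes. Without beta-catenin, the same factors recruit Groucho proteins, which repress those genes. In the intestine this pathway is best known for keeping crypt stem cells dividing, and colon cancers commonly carry mutations that leave it switched on.

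Caco-2 cells derive from a carcinoma of the human colon, and the study asked what happens to such cells when the long noncoding RNA LHFPL3-AS2 is silenced. The cells came from a monoclonal line that expresses dCas9-KRAB, a Cas9 that cannot cut DNA fused to a repressor domain, selected with puromycin. That line then received a lentiviral plasmid with a hygromycin gene and a U6 promoter, which was empty in the control (gCtl, 5 libraries) and carried a guide RNA against LHFPL3-AS2 in g1 (3 libraries) and g2 (2 libraries). All 3 groups therefore carried dCas9-KRAB, and the controls carried no guide. Because the lines are stable and derive from 1 parent clone, differences between the infected lines and effects of the guide cannot be told apart. The labels do not say whether libraries of a group came from separate cultures, so the p-values measure the spread between these libraries, which may be technical, and replicate numbers only tell libraries apart.

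The libraries were made with the QuantSeq method, in which reads come from near the polyA tail, and held between 3838803 and 8730468 estimated counts each. Levels are given as RPM, the count of a gene scaled to the same total in every library, and for RNA counted at its 3′ end this number does not grow with transcript length. In all 14 pairs of libraries of 1 group the counts differed by more than sampling noise (a chi-square of 4.29 to 26.1 per degree of freedom), so every library was counted as its own sample. The targeted LHFPL3-AS2 (GRCh38, chromosome 7, 104894628 to 104926645, minus strand) was between 0.840 and 3.73 RPM in gCtl, between 2.03 and 3.95 RPM in g1, and 2.16 and 6.01 RPM in g2. Its level with the guides was not below that in gCtl (log2 fold change 0.63 ± 0.44 (SE), edgeR adjusted p = 0.321), on 4.39 to 44.0 counts per library. This fit was over genes of all classes, not only those with a protein-coding transcript. The paper reports depletion of LHFPL3-AS2 with both guides by qPCR, a measure these libraries do not hold. The groups are therefore named by their guide labels throughout. The 13 intestinal epithelial markers summed to 1830 to 2491 RPM in gCtl, 1836 to 2285 RPM in g1 and 1955 to 2020 RPM in g2. The 10 stromal and immune markers summed to 7.96 to 15.3, 16.1 to 22.9 and 7.78 to 13.8 RPM, each marker had at least 1 count over all libraries, and their part in the results was not tested. These are bulk samples, in which fewer cells expressing a gene and less RNA per cell cannot be told apart.

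A gene was called where the edgeR quasi-likelihood test gave an adjusted p of at most 0.05 and the fold change was at least 1.5. All 10 genes passed the filter on low values, TLE2 only through its gCtl libraries. With g1 and g2 together against gCtl, 5 of the 10 genes were called, against a background of 19.2% of the 11640 genes tested. CTNNB1, LEF1, TLE4 and TLE2 fell, where 11% of all genes were called lower, and TCF7L2 rose, where 8.14% were called higher. In g1 alone 4 of the 10 were called (background 16.7%), in g2 alone 4 (background 23.7%), and between g2 and g1 1 (background 4.97%). The 2 guides were compared with the same 5 gCtl libraries, so their results are not independent. Of all genes called with both guides, 57.5% were lower, and with library totals in place of TMM scaling this was 69.4%.

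**Figure D1:**
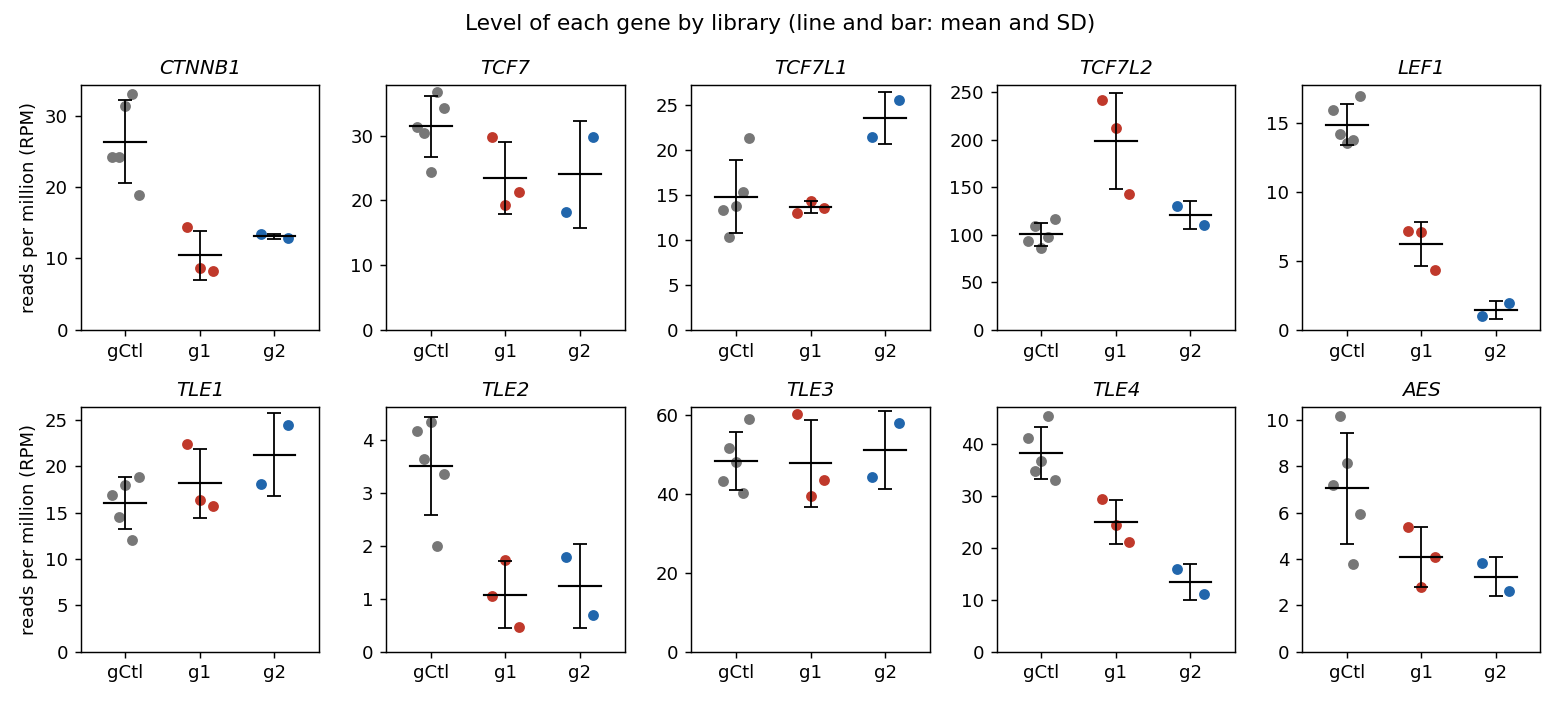
RPM of each of the 10 genes (vertical axes, linear from 0) in the libraries of gCtl (grey, 5), g1 (red, 3) and g2 (blue, 2); points are libraries, and lines and bars are the mean and SD. CTNNB1, LEF1, TLE2 and TLE4 lie below all gCtl libraries in all 5 guide libraries, and TCF7L2 is highest in g1.

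CTNNB1 encodes beta-catenin, which besides its nuclear role links E-cadherin to the actin cytoskeleton at cell junctions. The gene lies on chromosome 3 (GRCh38, 41194741 to 41260096, plus strand). Its level in gCtl was 24.2, 24.1, 31.4, 33.0 and 18.9 RPM. In g1 it was 14.4, 8.60 and 8.25 RPM, and in g2 it was 13.4 and 12.8 RPM. Every guide library was below every gCtl library. The log2 fold change was -1.10 ± 0.21 (SE; 95% interval -1.54 to -0.65; edgeR adjusted p = 0.00219), so that the fitted level with the guides was 0.468 of that in gCtl. It was -1.30 ± 0.23 in g1 (adjusted p = 0.00144) and -0.84 ± 0.26 in g2 (adjusted p = 0.0261). The guides did not differ detectably from each other (0.45, interval -0.14 to 1.05). The call in g2 rested on its libraries: it was lost without gCtl replicate 3 or 4 (adjusted p = 0.0581 and 0.06) and without either g2 replicate (0.058 and 0.14).

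Reads that fit several transcripts are divided among them by estimation, so a transcript's count is less certain than the gene's. Most CTNNB1 counts fell on the protein-coding transcript CTNNB1-001, which held 75.8% of them in gCtl, 65.1% in g1 and 70.6% in g2. It was at 20.2 ± 6.30 RPM (SD, n = 5) in gCtl, 6.80 ± 3.14 RPM (n = 3) in g1 and 9.15 ± 1.31 RPM (n = 2) in g2. Of 23861 transcripts tested, 5.83% were called with both guides together, and of the 23 tested transcripts of the 10 genes 2 were, CTNNB1-001 (log2 fold change -1.30 ± 0.31, edgeR adjusted p = 0.0393) and TCF7L2-010. Leaving out 1 library at a time ended the call of CTNNB1-001 in 7 of 10 cases, namely without any of gCtl replicates 1 to 4 or any g1 library (adjusted p up to 0.0952). CTNNB1-004, annotated as a retained intron, was at 4.83 ± 1.55, 3.13 ± 0.43 and 2.48 ± 2.16 RPM and was not called (-0.68 ± 0.43, adjusted p = 0.364). Transcripts whose annotated ends lie within 100 bases of each other were also summed, a choice made after seeing the data. In that form 3 of the 19 member groups were called, against 11.3% of 20262, and the group of CTNNB1-001 (-1.35 ± 0.29, adjusted p = 0.0151) stayed called in 10 of 10 such omissions, as did the group of TCF7L2-010 (1.24 ± 0.27, adjusted p = 0.0154). The third was TLE4-013 (-0.93 ± 0.26, adjusted p = 0.0419), whose call was lost in 7 of 10 omissions, namely without any of gCtl replicates 1 to 4, g1 replicate 2 or 3, or g2 replicate 1 (adjusted p up to 0.0968).

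The TCF/LEF factors share a DNA-binding HMG box and differ in how strongly they activate or repress. TCF7L2 is the main family member of the intestinal epithelium, and its level was the highest of the 10 genes (chromosome 10, 112950250 to 113167678, plus strand). In gCtl it was at 93.3, 109, 86.0, 97.5 and 116 RPM. In g1 it was at 242, 212 and 144 RPM, above every gCtl library, and in g2 it was at 131 and 110 RPM. The second g2 library lay below the highest gCtl library, so the pooled groups overlapped. TCF7L2 rose with both guides together (log2 fold change 0.81 ± 0.18, interval 0.43 to 1.19, edgeR adjusted p = 0.0054) and in g1 (1.02 ± 0.16, adjusted p = 0.000585). In g2 the change was 0.42 ± 0.18 (adjusted p = 0.0993), and the difference between g2 and g1 was -0.60 ± 0.20 (adjusted p = 0.105), which passed the threshold only without g1 replicate 3 (adjusted p = 0.0439).

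The rise of TCF7L2 was seen in a short protein-coding transcript, TCF7L2-010, of 620 bases. It was at 42.46, 45.1, 35.2, 54.3 and 30.9 RPM in gCtl, at 134, 144 and 82.5 RPM in g1, and at 45.5 and 68.9 RPM in g2. The g1 libraries were above every gCtl library, whereas the first g2 library was inside the gCtl range. Its log2 fold change was 1.24 ± 0.28 with both guides (edgeR adjusted p = 0.0323) and 1.54 ± 0.22 in g1 (adjusted p = 0.0139), where 3.28% of all transcripts were called and it was the 1 called among the members. The pooled call was lost on leaving out any gCtl or any g1 library (8 of 10 omissions, adjusted p up to 0.0807), and the g1 call without g1 replicate 2 (adjusted p = 0.0547). Its share of TCF7L2 counts was 40.1% in gCtl, 59.5% in g1 and 48.7% in g2. TCF7L2-007, also short and coding, held 28.9 ± 19.0, 34.0 ± 21.96 and 17.0 ± 9.79 RPM, and the full-length TCF7L2-208 held 12.6 ± 4.25, 17.7 ± 11.3 and 23.6 ± 20.1 RPM. Neither was called (adjusted p = 0.969 and 0.369). Of the 620 bases of TCF7L2-010, 547 lie in exons of TCF7L2-208, so reads from these bases fit both.

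LEF1, a family member of low abundance in normal adult gut and itself a Wnt target, had the largest decrease of the 10 genes with both guides together and in g2, while TLE2 had the largest in g1 (chromosome 4, 108047545 to 108168956, minus strand). In gCtl it was at 15.9, 14.2, 13.5, 13.7 and 16.9 RPM. In g1 it was at 7.12, 7.10 and 4.35 RPM, and in g2 at 0.979 and 1.91 RPM, which is 6 and 14 counts. The 3 groups did not overlap, in the order gCtl, g1, g2. The log2 fold change was -1.75 ± 0.36 with both guides (interval -2.52 to -0.99, edgeR adjusted p = 0.0034), -1.24 ± 0.25 in g1 (adjusted p = 0.00299) and -3.16 ± 0.35 in g2 (adjusted p = 2.72e-05). It was the 1 member called between the guides, lower in g2 than in g1 by -1.92 ± 0.37 (adjusted p = 0.00783). That difference missed the threshold against a 1.5-fold null (adjusted p = 0.0512) and in a fit of the g1 and g2 libraries alone (adjusted p = 0.09).

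Few LEF1 counts fell on protein-coding transcripts, 10.1% ± 8.94 (SD, n = 5) in gCtl. LEF1-010, annotated as a processed transcript without a reading frame, carried 58.4% of LEF1 counts in gCtl. It was at 8.76, 10.8, 6.39, 7.66 and 9.67 RPM in gCtl and at 2.74, 5.80 and 2.64 RPM in g1. In g2 it had 0 and 0.427 counts, at or under the floor of 3 counts per library, so that it was at least 19.2-fold lower in g2 than in gCtl. It was called in g2, where 6.31% of transcripts and 2 of the 23 member transcripts were, and between g2 and g1, where 0.742% and 1 were (edgeR adjusted p = 0.00308 and 0.0148). The second of these calls was lost when only the g1 and g2 libraries were fitted (adjusted p = 0.288). LEF1-010 passed the filter through its gCtl libraries, since g1 replicate 2 was the only guide library above 3 RPM. A low level in g2 was thus partly built into its being tested. LEF1-015, a retained intron, was at 2.97 ± 1.14, 1.22 ± 0.16 and 0.34 ± 0.48 RPM and was not called with both guides (adjusted p = 0.218). It passed the filter only through gCtl replicates 4 and 5 (3.68 and 4.48 RPM), so the same limit holds for it. The full-length coding LEF1-201 held 29.8 counts in all 5 gCtl libraries together, 4.81 in g1 and 9.34 in g2, too few to compare. All 1084 bases of LEF1-010 lie in exons of LEF1-201, and its end is 624 bases before the last annotated end of the gene.

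The annotated ends of some of these transcripts show what a 3′ read could have come from. Below are the last 30 bases of each from GENCODE v29 on GRCh38, 5′ to 3′ on the transcript strand, with the polyadenylation signals AATAAA or ATTAAA in capitals. One or both of these occur in the last 30 bases of 38.4% of the 83129 coding transcripts of that annotation.
CTNNB1-001: ATTAAActtttaattcattcgattgtgtca
TCF7L2-208: AATAAAagcaacttagtatgtgcagataaa
LEF1-010: ttgcttttttaaacttgaatttttttaatt
LEF1-201: gtAATAAAacatttttaaaaattgtcattt
TLE4-013: ttgggtcttgaaatctagcaattagttcag
TLE4-201: taaagtaaagtggttttttttgttgttaaa
These stretches lie at chr3:41240424-41240453, chr10:113167649-113167678, chr4:108048169-108048198 (minus strand), chr4:108047545-108047574 (minus strand), chr9:79576773-79576802 and chr9:79726853-79726882. CTNNB1-001, TCF7L2-208 and LEF1-201 hold a signal there. LEF1-010 and TLE4-013, which held most of the counts of their genes in gCtl, hold neither signal in this window, and neither does TLE4-201. TCF7L2-208 was not called, and the end of TCF7L2-010, on which the rise of TCF7L2 was seen, is not among those shown. CTNNB1-001 is 3947 bases long in this annotation and 3737 in the authors' tables, so its end may differ.

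TCF7, an activator best known from T cells (chromosome 5, 134114711 to 134151865, plus strand), was at 31.4, 30.5, 24.3, 36.8 and 34.3 RPM in gCtl. It was at 29.8, 19.3 and 21.3 RPM in g1 and at 18.2 and 29.8 RPM in g2. The groups overlapped and it was not called (log2 fold change -0.32 ± 0.18, interval -0.69 to 0.06, edgeR adjusted p = 0.204). Its counts sat mostly on TCF7-003 and TCF7-004, which end at the same base. TCF7-004 held 108 counts in gCtl replicate 5 and 16.3 in replicate 3 and was at 0 in the other 8 libraries, while TCF7-003 was at its lowest, 8.61 RPM, in gCtl replicate 5. The sum over all 4 transcripts with nearby ends there, these 2 among them, was 30.2 RPM in gCtl, 21.8 in g1 and 21.4 in g2.

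TCF7L1, the family member that acts mostly as a repressor in stem cells (chromosome 2, 85133410 to 85310388, plus strand), was at 13.4, 10.3, 13.8, 15.4 and 21.4 RPM in gCtl. It was at 13.0, 14.3 and 13.6 RPM in g1 and at 21.5 and 25.6 RPM in g2. Both g2 libraries were above every other library, the nearest being gCtl replicate 5. TCF7L1 rose in g2 (log2 fold change 0.82 ± 0.24, interval 0.30 to 1.33, edgeR adjusted p = 0.0222) but was not called in g1 (-0.08 ± 0.23, adjusted p = 0.84) or with both guides (0.35 ± 0.25, adjusted p = 0.335). The difference between g2 and g1, 0.89 ± 0.27, had an adjusted p of 0.0658. The call in g2 was lost without g2 replicate 2 (adjusted p = 0.142) and with library totals as the scaling (0.0506), and the difference between the guides was called without gCtl replicate 5 (adjusted p = 0.0279). TCF7L1-001, which reaches the end of the gene, was at 11.6 ± 3.49, 8.43 ± 3.06 and 18.9 ± 0.37 RPM and was not called in g2 (adjusted p = 0.203).

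As a share of all TCF/LEF counts, a description that no test went with, TCF7L2 held 62.2% ± 2.64 (SD, n = 5) in gCtl, 81.8% ± 2.85 (n = 3) in g1 and 71.0% ± 7.46 (n = 2) in g2. LEF1 held 9.23% ± 0.81, 2.54% ± 0.23 and 0.86% ± 0.40. TCF7 held 19.5% ± 1.99, 9.83% ± 2.03 and 14.2% ± 5.11, and TCF7L1 held 9.15% ± 1.87, 5.86% ± 1.51 and 13.9% ± 1.95. The LEF1 share of the highest guide library, 2.81%, was below that of the lowest gCtl library, 8.41%. The 4 factors together summed to 162 ± 18.7 RPM in gCtl, 242 ± 55.3 in g1 and 169 ± 2.90 in g2. With protein-coding transcripts alone, LEF1 held 1.09% ± 1.01 in gCtl, 0.10% ± 0.18 in g1 and 0.40% ± 0.35 in g2. There gCtl and the guides overlapped, the lowest gCtl library being at 0.23% and the highest guide library at 0.65%. TCF7L2 held 69.0%, 84.4% and 72.4% in the 3 groups.

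**Figure D2:**
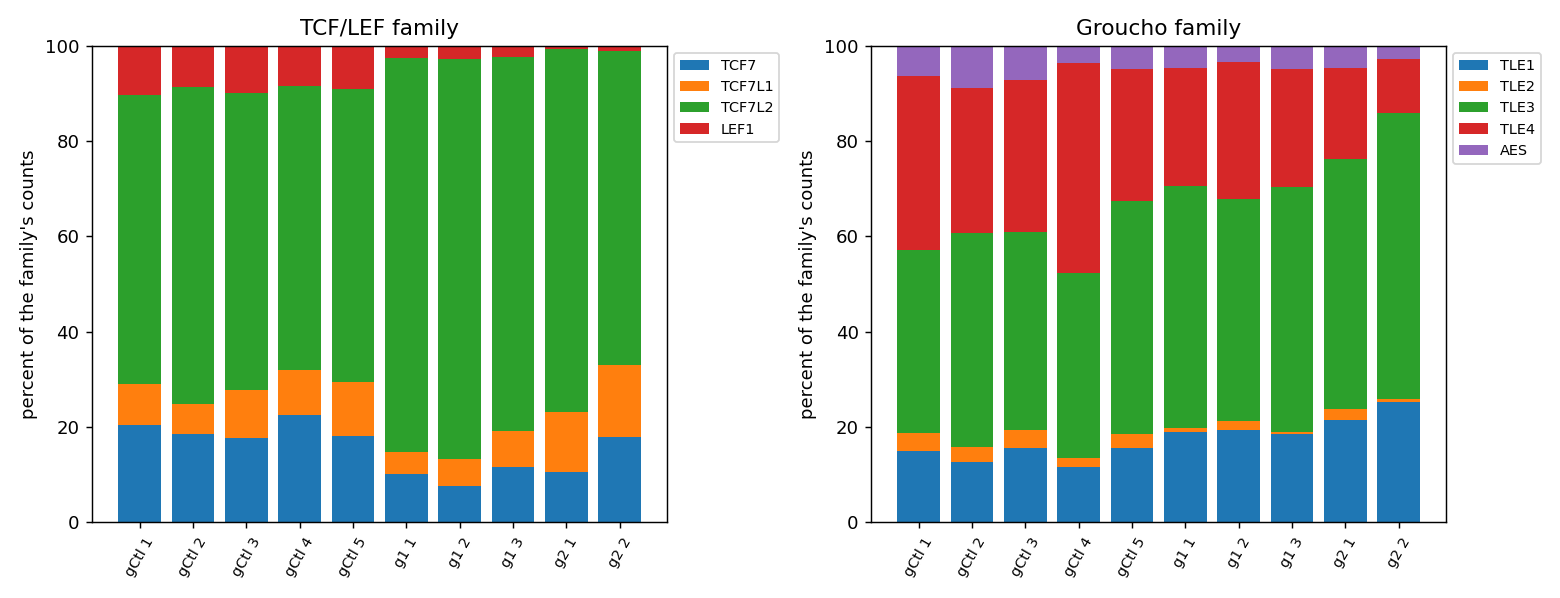
Share of each gene (percent, vertical axes) in the counts of the TCF/LEF family (left) and the Groucho family (right), 1 bar per library of gCtl, g1 and g2. The LEF1 share is between 8.41% and 10.3% in gCtl and at most 2.81% with the guides, and the TLE4 share is lowest in g2.

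The TCF7L2 protein is often called TCF4, but the gene named TCF4 encodes a different protein, an E-protein of the basic helix-loop-helix class. TCF4 was at 125 ± 16.4 RPM in gCtl, 31.8 ± 10.5 RPM in g1 and 16.6 ± 3.98 RPM in g2 (log2 fold change -2.22 ± 0.22, edgeR adjusted p = 3.15e-05), so the 2 genes moved in opposite directions.

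The Groucho family are corepressors that tether histone deacetylases to TCF/LEF factors, and AES, the short member, lacks the repeat domain and can act against the others. TLE4 fell (chromosome 9, 79571773 to 79726882, plus strand). It was at 41.2, 34.9, 36.8, 45.5 and 33.1 RPM in gCtl, at 29.5, 24.5 and 21.1 RPM in g1, and at 15.98 and 11.1 RPM in g2. No library of 1 group reached into another, again in the order gCtl, g1, g2. The log2 fold change was -0.83 ± 0.20 with both guides (interval -1.26 to -0.41, edgeR adjusted p = 0.00842) and -1.34 ± 0.21 in g2 (adjusted p = 0.000498). In g1 it was -0.57 ± 0.17 with an adjusted p of 0.0303, under the 1.5-fold minimum. The difference between the guides, -0.77 ± 0.23, missed the threshold (adjusted p = 0.0598) and passed it without g2 replicate 1 (0.0223).

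Only 9.53% ± 3.13 (SD, n = 5) of TLE4 counts in gCtl fell on coding transcripts. TLE4-013, annotated as a target of nonsense-mediated decay, carried 79.1%, 76.7% and 69.0% of TLE4 counts in gCtl, g1 and g2. It was at 34.6, 27.6, 30.1, 35.9 and 23.9 RPM in gCtl, at 24.6, 18.6 and 15.0 RPM in g1, and at 11.6 and 7.12 RPM in g2. It was called in g2 (log2 fold change -1.56 ± 0.29, edgeR adjusted p = 0.0188), a call lost without g2 replicate 2 (0.0896), and not with both guides (-0.94 ± 0.28, adjusted p = 0.072), whereas it was called with nearby ends summed (0.0419). TLE4-201, which encodes the full protein, was at 3.30 ± 1.33, 2.03 ± 0.63 and 2.40 ± 0.79 RPM and was under the filter for the test. TLE4-013 ends 5029 bases after the start of the gene and 150080 bases before its last end, and 1102 of its 1536 bases lie in exons of TLE4-201. The counts of TLE4 therefore speak mostly of a short 5′ transcript.

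TLE4-013 starts at base 79571941, 168 bases after TLE4-201, and both starts fall into 1 RefSeq promoter window (250 bases before to 50 after a start). That window is shown with the window of LEF1, the other member whose counts sat mostly on a transcript without a full reading frame, 5′ to 3′, with the TCF/LEF core CTTTG, or CAAAG on the other strand, in capitals.
TLE4: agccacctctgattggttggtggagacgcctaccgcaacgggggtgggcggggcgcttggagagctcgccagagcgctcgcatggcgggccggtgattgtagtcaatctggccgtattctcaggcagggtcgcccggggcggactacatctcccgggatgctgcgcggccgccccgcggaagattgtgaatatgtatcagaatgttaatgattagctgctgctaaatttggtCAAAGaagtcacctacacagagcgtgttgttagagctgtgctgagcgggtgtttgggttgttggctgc
LEF1: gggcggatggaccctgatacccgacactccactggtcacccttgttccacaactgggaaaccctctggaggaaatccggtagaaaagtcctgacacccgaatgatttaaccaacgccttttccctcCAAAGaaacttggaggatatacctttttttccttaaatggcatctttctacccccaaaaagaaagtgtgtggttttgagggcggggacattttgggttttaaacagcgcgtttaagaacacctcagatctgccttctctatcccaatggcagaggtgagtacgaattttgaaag
They are at chr9:79571715-79572014 (plus strand) and chr4:108166252-108166551 (minus strand) on GRCh38.p14. The core is short and was found in 47.5% of the 35116 windows of all genes and in 9 of the 18 windows of the 10 members, so its presence sets neither gene apart. The LEF1 window lies inside the gene as GENCODE v29 annotates it, whose 5′ end is at base 108168956. LEF1-010 starts at base 108083413 and so outside the window.

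TLE2 was the least abundant member (chromosome 19, 2997638 to 3047635, minus strand), at 4.17, 3.64, 4.33, 2 and 3.35 RPM in gCtl. It was at 1.04, 1.72 and 0.458 RPM in g1 and at 1.79 and 0.683 RPM in g2, which is 4 to 11 counts per library. TLE2 fell with both guides together (log2 fold change -1.57 ± 0.42, interval -2.47 to -0.68, edgeR adjusted p = 0.0148) and in g1 (-1.75 ± 0.52, adjusted p = 0.0257), and was not called in g2 (-1.35 ± 0.57, adjusted p = 0.092). Since TLE2 passed the filter only through gCtl, a lower level with the guides was partly built into its being tested. The call in g1 was lost without gCtl replicate 3 (adjusted p = 0.0592), g1 replicate 1 (0.0738) or g1 replicate 3 (0.127).

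AES (chromosome 19, 3052910 to 3063107, minus strand) was at 7.21, 10.2, 8.15, 3.80 and 5.95 RPM in gCtl, at 5.38, 2.79 and 4.09 RPM in g1, and at 3.85 and 2.63 RPM in g2. The groups overlapped through gCtl replicate 4. Its log2 fold change, -0.82 ± 0.30 (interval -1.45 to -0.19), missed the threshold (edgeR adjusted p = 0.0576), and it passed without gCtl replicate 4 (0.0336) or g1 replicate 1 (0.0458), in DESeq2 (0.0432), in both limma fits (0.0462 and 0.0497), with library totals (0.0409) and in a fit with 3 groups (0.0424). An antisense gene overlaps the 3′ end of AES, and whether the counting used strand is not given in the sources used here, so reads of the 2 genes may be mixed. The retained-intron transcript AES-005 was at 2.77 ± 1.87 RPM in gCtl and at 0 in every g1 library, at least 5.50-fold lower, but was not called (adjusted p = 0.0944). In g2 it was at 0 and 1.91 RPM, the latter inside the gCtl range. It passed the filter only through gCtl replicates 1 and 5 (5.57 and 3.27 RPM), so a lower level with the guides was partly built into its being tested.

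TLE3 and TLE1 were not called in any of the 4 comparisons. TLE3 (chromosome 15, 70047790 to 70098176, minus strand), the most abundant member of the family, was at 43.2, 51.6, 48.0, 40.2 and 59.0 RPM in gCtl, at 60.3, 39.4 and 43.5 RPM in g1, and at 44.2 and 58.0 RPM in g2. Its interval with both guides, -0.23 to 0.44 on the log2 scale, holds 0 and leaves out a 1.5-fold change in either direction. TLE1 (chromosome 9, 81583683 to 81689305, minus strand) was at 16.9, 14.6, 18.03, 12 and 18.9 RPM in gCtl, at 22.4, 16.3 and 15.7 RPM in g1, and at 18.1 and 24.4 RPM in g2 (0.36 ± 0.19, interval -0.04 to 0.76, edgeR adjusted p = 0.175).

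Within the Groucho family, TLE3 held 42.6% ± 4.47 (SD, n = 5) of the counts in gCtl, 49.5% ± 2.67 (n = 3) in g1 and 56.3% ± 5.13 (n = 2) in g2. TLE4 held 34.1% ± 6.41, 26.2% ± 2.35 and 15.2% ± 5.39, and TLE1 held 14.1% ± 1.87, 18.9% ± 0.40 and 23.4% ± 2.59. AES went from 6.19% ± 1.99 in gCtl to 4.22% ± 0.81 and 3.65% ± 1.32, and TLE2 from 3.07% ± 0.75 to 1.15% ± 0.78 and 1.42% ± 1.01. The 5 genes together summed to 113 ± 6.14 RPM in gCtl, 96.1 ± 19.6 RPM in g1 and 90.4 ± 9.12 RPM in g2. Counted on coding transcripts alone, TLE3 held 64.9%, 65.5% and 65.3% in the 3 groups, so the rise in its share was not seen there. TLE4 held 5.17% ± 2.81, 2.98% ± 1.29 and 3.86% ± 0.95 on these transcripts. Its share was thus small in every group and lower on average with the guides, with overlapping ranges.

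**Figure D3:**
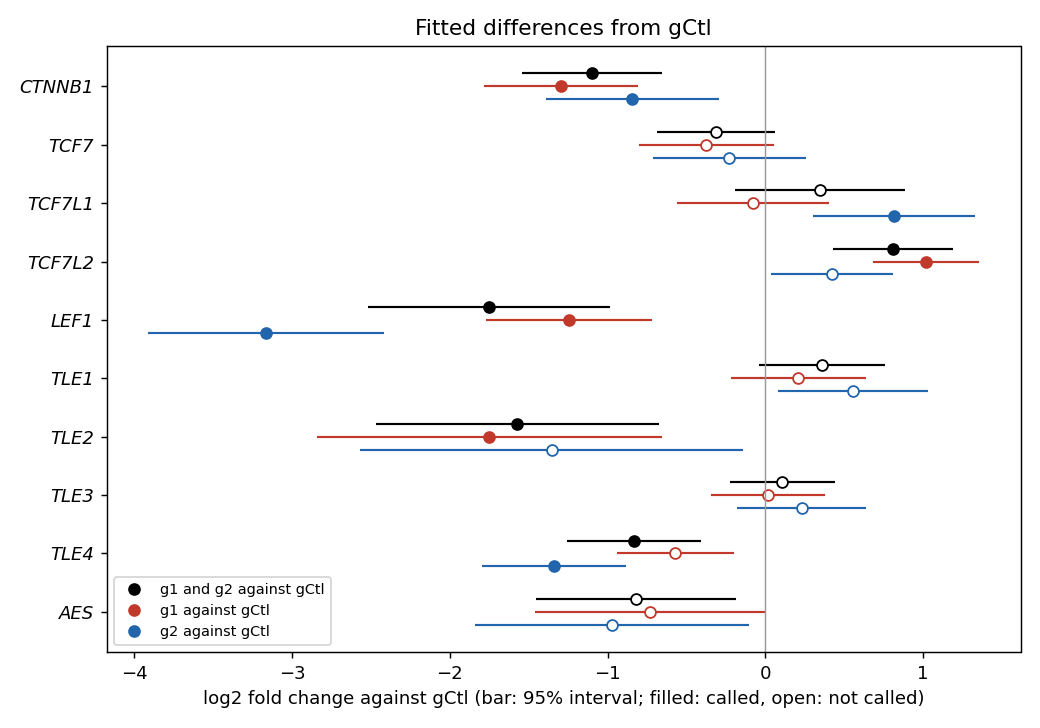
Log2 fold change of each gene against gCtl (horizontal axis) with both guides (black), g1 (red) and g2 (blue), with 95% intervals from the edgeR fits; filled points were called and open points were not. CTNNB1 and LEF1 are filled in all 3 rows, and LEF1 in g2 is the point farthest from 0 (-3.16).

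**Figure D4:**
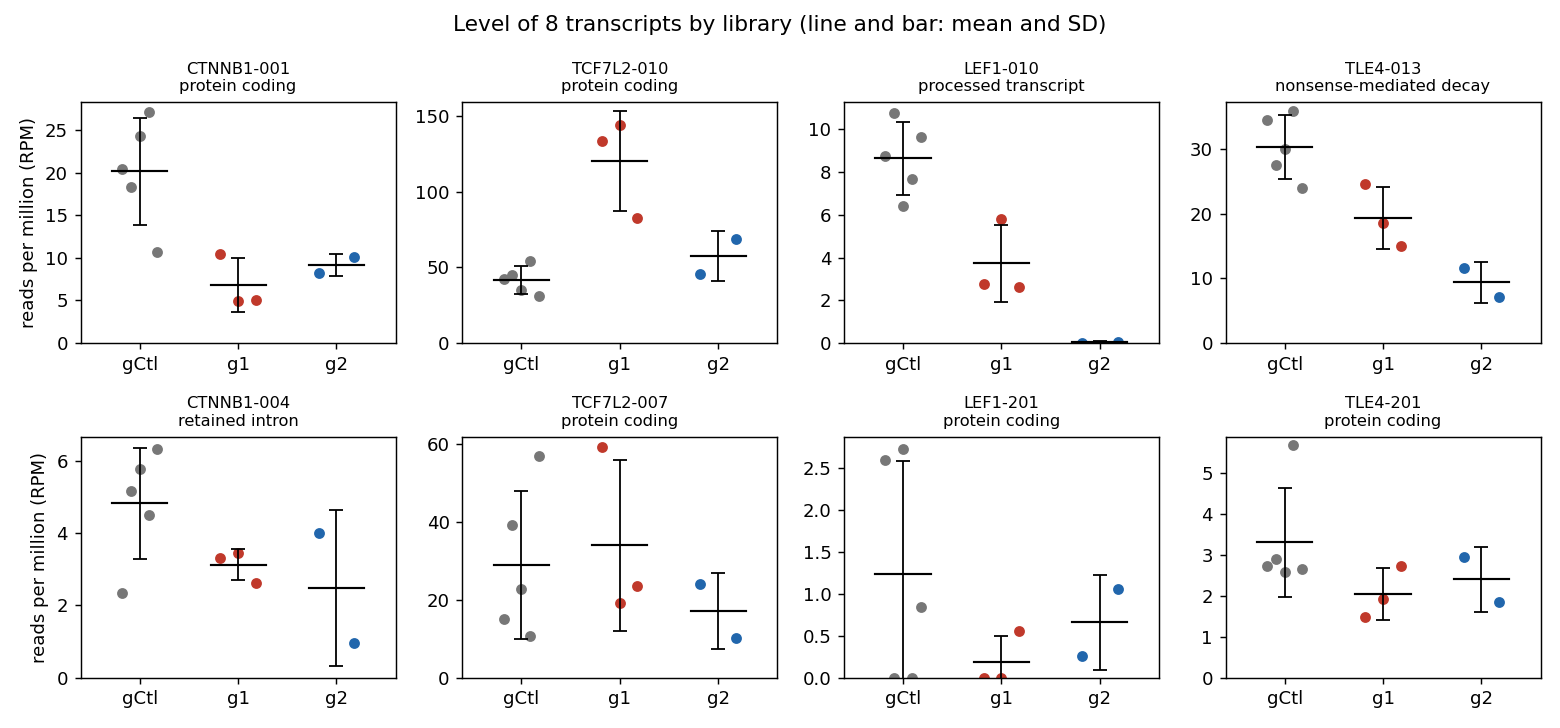
RPM of 8 transcripts of CTNNB1, TCF7L2, LEF1 and TLE4 (vertical axes, linear from 0) by library in gCtl (grey), g1 (red) and g2 (blue), with the annotated class above each panel; lines and bars are the mean and SD. LEF1-010 and TLE4-013 fall in steps from gCtl to g1 to g2, and TCF7L2-010 is at 82.5 to 144 RPM in g1 against 30.9 to 54.3 RPM in gCtl.

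Ordered by RPM in gCtl, TCF7L2 (100 ± 12.2, SD, n = 5) came first, followed by TLE3 (48.4 ± 7.35), TLE4 (38.3 ± 5.02), TCF7 (31.5 ± 4.70) and CTNNB1 (26.3 ± 5.81). TLE1 (16.1 ± 2.79), TCF7L1 (14.9 ± 4.10), LEF1 (14.9 ± 1.48), AES (7.06 ± 2.39) and TLE2 (3.50 ± 0.93) followed. Among neighbours, TLE3 and TLE4, TLE4 and TCF7, TCF7 and CTNNB1, and TLE1, TCF7L1 and LEF1 lay within their spreads of each other. When counts were divided by annotated transcript length (TPM), TCF7L2 stayed first at 146 and TLE2 last at 2.96, while LEF1 moved from place 8 to place 3 (20.3) and TLE4 to place 2 (35.5), since their counts sat on short transcripts.

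The genes around beta-catenin were taken from lists of the pathway. These lists were chosen with earlier results of these data known, so their shares and medians are a description. Of 18 Wnt receptors and coreceptors, 12 were tested, 5 fell and 1 rose, where 11% of all genes were called lower and 8.14% higher. Their median log2 fold change was -0.61, against 0.02 over all genes tested. ROR1, a receptor for Wnt5a, fell from 32.5 ± 5.64 to 7.31 ± 5.36 RPM (SD, n = 5 each; log2 fold change -2.13 ± 0.34, edgeR adjusted p = 0.000715). KREMEN1, which helps DKK remove the coreceptor LRP6, fell by 0.95 on the log2 scale (adjusted p = 0.00664). RYK, FZD6 and FZD2, receptors that bind Wnt, changed by -0.76 (adjusted p = 0.00172), -0.74 (0.0361) and -1.17 (0.0446). FZD6 was not called in g1 or g2 alone (adjusted p = 0.0783 and 0.0928), and FZD2 was not called in g2 (0.441). FZD5 rose from 31.7 ± 4.46 to 54.8 ± 10.5 RPM (0.87 ± 0.15, adjusted p = 0.00116). Of these 6 receptors FZD2 differed between the guides, -2.14 in g1 and -0.37 in g2 (adjusted p of the difference 0.0185).

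Of 18 Wnt target genes, 14 were tested, 6 fell and 1 rose, where 11% of all genes were called lower and 8.14% higher, with a median of -0.66. NKD1, a feedback inhibitor that binds Dishevelled, went from 41.1 ± 3.88 RPM in gCtl to 8.56 ± 3.29 RPM with the guides (SD, n = 5 each; log2 fold change -2.21 ± 0.20, edgeR adjusted p = 2.4e-05). SP5, a transcription factor, changed by -1.79 ± 0.39 (adjusted p = 0.00467) and TNFRSF19 by -1.09 ± 0.30 (0.0179). TNFRSF19 was called in g1 (-1.59, adjusted p = 0.00246) but not in g2 (-0.56, adjusted p = 0.218). EPHB2, which positions crypt cells, fell from 113 ± 19.8 to 55.6 ± 15.8 RPM (-0.95 ± 0.18, adjusted p = 0.00227), and PROX1 from 57.8 ± 12.7 to 28.6 ± 5.01 RPM (-0.93 ± 0.17, adjusted p = 0.00165). SOX9, a factor of crypt and Paneth cells, rose from 153 ± 15.8 to 244 ± 22.5 RPM (0.77 ± 0.14, adjusted p = 0.00132). The 7 not called were AXIN2 (-0.72), CD44 (-0.64), CCND1 (-0.23), ASCL2 (-0.19), RNF43 (-0.08), MYC (0.34) and LGR5 (0.43). AXIN2 is also counted in the list of the destruction complex. The direction of the list was thus not that of every member, and LEF1, itself a target, is not among these counts.

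The destruction complex, which marks beta-catenin for degradation, showed a median of 0.02 with both guides together, the same as over all genes. Of its 18 listed genes 17 were tested, and AXIN1, a scaffold, fell (9.35 ± 2.32 to 5.06 ± 1.38 RPM, SD, n = 5 each; log2 fold change -0.78 ± 0.26, edgeR adjusted p = 0.0439), while 16 were not called. AXIN1 was not called in g1 or g2 alone (adjusted p = 0.104 and 0.097). In g2, 3 of the 17 were called lower and 1 higher, against 23.7% of all genes called, with a median of -0.11. Of 26 nuclear cofactors and modifiers 25 were tested, 1 fell and 4 rose, a share near the 19.2% called among all genes, with a median of 0.11. CTNNBIP1, which blocks beta-catenin from binding TCF, was the one that fell (-0.72 ± 0.22, adjusted p = 0.0255). CTBP2, a corepressor, rose from 160 ± 14.9 to 245 ± 41.0 RPM (0.69 ± 0.13, adjusted p = 0.00187), as did the beta-catenin coactivator BCL9 (0.65 ± 0.19, 0.0242), the ubiquitin ligase XIAP that acts on Groucho proteins (0.61 ± 0.17, 0.0155) and the chromatin remodeler CHD8 (0.61 ± 0.13, 0.00447). In g1 alone CTNNBIP1, BCL9 and XIAP were not called (adjusted p = 0.0849, 0.0545 and 0.0681). In g2 alone CHD8 was not called (adjusted p = 0.0546), and CTBP2, at 0.58, was under the 1.5-fold minimum. Of 7 membrane partners of beta-catenin 5 were tested, and CDH3, P-cadherin, fell from 86.2 ± 8.83 to 25.0 ± 9.57 RPM (-1.72 ± 0.20, adjusted p = 9.2e-05), with 4 not called and a median of -0.33.

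**Figure D5:**
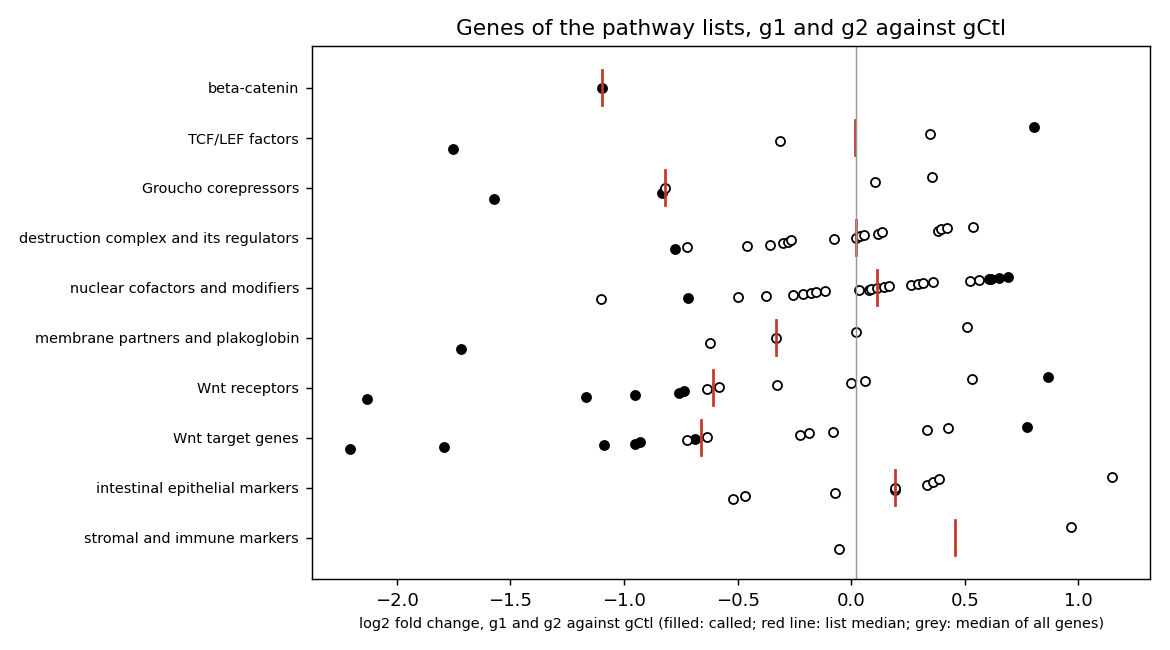
Log2 fold change with both guides against gCtl (horizontal axis) of the tested genes of each list; filled points were called, open points were not, red lines are list medians and the grey line is the median of all genes tested (0.02). Wnt receptors and Wnt target genes have medians of -0.61 and -0.66, with FZD5 and SOX9 as the filled points above 0.

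The genes whose log2 level followed CTNNB1 most closely over the 10 libraries were SNTB2 (Pearson's r = 0.964), RXRB (0.963) and SCARB2 (0.952). For TCF7L2 they were CHD8 (0.973), AK3 (0.958) and TBC1D16 (0.956), and for LEF1 they included SMIM4 (0.979) and NAV2 (0.978). These are among the highest of 11640 values each, over libraries that share 3 groups, and are given as a description. Of all genes tested, 9.79% were below every gCtl library in all 5 guide libraries, as were 4 of the 10 members, CTNNB1, LEF1, TLE2 and TLE4. TLE2 passed the filter only through gCtl, so its place among them was partly built into its being tested.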

How the data were processed

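RNA of Caco-2 dCas9-KRAB cells was sequenced from QuantSeq 3′ libraries, single-end. The authors pseudoaligned reads with Kallisto (version 42.5 in the submitters' processing notes) and deposited estimated counts per GENCODE transcript (v24 in the methods) for each library, not normalized and not pooled; the library totals of 3838803 to 8730468 set the precision of low genes. The estimated counts were summed per gene and rounded. RPM and TPM were computed here. Genes with a protein-coding transcript and RPM above 3 in at least 20% of libraries were tested with the quasi-likelihood test of edgeR 4.0.16 under R 4.3.3 after TMM scaling, in a fit of 2 groups (5 against 5) and one of 3 groups, with Benjamini-Hochberg adjustment over all genes or transcripts tested and calls at adjusted p at most 0.05 and fold change at least 1.5. SE is the log2 fold change divided by the root of F, and intervals are 95%. Groups at or under 3 counts per library were given bounds, which cover counting error only. Alternatives were other scalings, filters, tools (DESeq2 1.42.0, limma 3.58.1 on log2(RPM + 1) and log2(RPM + 0.1)), groupings and each library left out. Named genes are the 10 members, LHFPL3-AS2, TCF4, up to 6 called genes per list by size of change, and the 3 best correlated genes of CTNNB1, TCF7L2 and LEF1. The Wnt target genes that were tested and not called are named as well. The members and lists were chosen with earlier results of these data known. Coordinates and sequences came from GENCODE v29 and RefSeq; 181 of the 183 member transcripts were found there by ID, 163 in the same version. The programs were tested on simulated data. Gene names follow the tables, where AES is the gene RefSeq calls TLE5. A gene that the rule names and a sequence are not reported here.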

Additional observations from a re-analysis of the deposited data

Results flagged for a closer look

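LEF1 was called between the guides in the main fit. It was lower in g2 than in g1 by -1.92 on the log2 scale (edgeR adjusted p = 0.00783). The call was lost against a 1.5-fold null (adjusted p = 0.0512) and in a fit of the g1 and g2 libraries alone (0.09). Its transcript LEF1-010 had a fitted difference of -7.38 (edgeR adjusted p = 0.0148), which depends on the prior count because g2 had at most 0.427 counts per library. In the fit of those 2 groups alone LEF1-010 was not called (adjusted p = 0.288). Against the floor of 3 counts it was at least 19.2-fold lower in g2 than in gCtl. LEF1-010 passed the filter through gCtl, so a low level in g2 was partly built into its being tested. No library stood apart in the 20 sets of 5 libraries examined, gCtl and both guides together for each of the 10 genes. The libraries of g1 or g2 alone were not examined, so one apart from others of its guide could be missed.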

How the results depend on the processing

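No paired analysis was possible because the labels carry no replicate numbers that pair libraries across groups. Over 880 re-computed log2 fold changes of the 10 genes, 826 kept their direction and their side of the threshold, 24 passed it newly, 18 no longer passed it and 12 changed sign, each in a comparison in which that gene had not been called.

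The number of the 10 genes called with both guides, 5, became 1 when tested against a 1.5-fold null, the gene that stayed being LEF1, and lay between 5 and 6 with libraries left out. In g1, 4 became 3 to 5 with libraries left out. In g2, 4 became 2 against the 1.5-fold null and 2 to 4 with libraries left out, 2 being without g2 replicate 2. Between g2 and g1, 1 became 2 with library totals and in both limma fits, 3 in DESeq2, 0 against the 1.5-fold null and in a fit of those 2 groups, and 1 to 2 with libraries left out. Of the transcripts, 2 called with both guides became 1 with library totals and without a filter, 5 in DESeq2, 4 in limma on log2(RPM + 1) and in a 3-group fit, 0 against the 1.5-fold null and 0 to 3 with libraries left out. In g1, 1 became 4 in DESeq2, 2 and 3 in the limma fits, 0 against the 1.5-fold null, 3 without a filter and in a fit of 2 groups, 2 with nearby ends summed and 0 to 3 with libraries left out. In g2, 2 became 4 in DESeq2 and in limma on log2(RPM + 0.1), 1 against the 1.5-fold null and 1 to 3 with libraries left out. Between g2 and g1, 1 became 0 in a fit of those 2 groups and stayed at 1 with libraries left out. Beside these counts of 0, an unadjusted p under 0.05 in the main edgeR fits was reached by 4 of the 10 genes between the guides. Over all genes it was reached by 2448 of 11640. Of the 23 member transcripts, 5 each reached it with both guides, in g1 and between the guides. Over all 23861 transcripts, 5808, 4975 and 3158 did.

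TLE3 in g1 was -0.024 with library totals, -0.031 and -0.032 in the limma fits and -0.0092 over all biotypes, and -0.15 to 0.14 with libraries left out. With libraries left out TCF7 ran from -0.60 to 0.061 in g2 and from -0.22 to 0.45 between the guides, TCF7L1 in g1 from -0.19 to 0.095, and between the guides TLE2 ran from -0.43 to 0.99 and AES from -0.57 to 0.073. Library totals moved the median of all genes in g2 from -0.00 to -0.16. Of 11640 genes, 488 were called with both guides against the 1.5-fold null, in place of 2232; the causes were not tested.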
